A study of Mus musculus with 6 samples.

Results

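The gene regions described here belong to immediate early and stress response regulators: transcription factors of the Fos, Jun, Atf, Maf, Egr, Klf, Nr4a and Cebp families, the Gadd45, Ier and Sesn genes, the dual-specificity phosphatases (Dusp), the heat shock proteins (Hsp) and their J-domain partners (Dnaj). They were chosen by gene symbol alone, as deposited regions with at least 3 measured cytosine positions whose RefSeq transcript carries a symbol of one of these families. The rule gave 119 regions of 115 genes, out of 10021 regions in all. It matched 125 transcript regions, of which 6 held fewer than 3 positions (Klf8, Cebpe, Dnajb2, Dnajc12, Dnajc22 and Dnajc5b). The 119 regions lie on 19 autosomes and hold 3664 positions, from 3 to 99 each with a median of 26. Nr4a2, Sesn1, Hspa2 and Dnajc6 have 2 regions each, those of Hspa2 overlap, and 8 regions in all overlap another deposited region. For 5 members (Cebpzos, Gadd45gip1, Hspg2, Hspb11 and Ier3ip1) the symbol fits the rule by its letters only: Hspg2, for example, encodes perlecan, a basement membrane proteoglycan.

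DNA came from the quadriceps, a thigh muscle, of C57BL/6 mice. The exercised group (3 samples) ran on a motor-driven treadmill for 4 weeks, with tissue DNA prepared 3 hours after the final session, and the sedentary group (3 samples) served as its control. The labels name no transgene or deletion, give no age or sex, and do not state that the samples of a group were separate animals, so p-values measure only the spread between these samples, which may be technical. Methylation was read by reduced representation bisulfite sequencing, in which DNA is cut with a restriction enzyme and treated with bisulfite, after which methylated cytosines still read as C and the unmethylated ones as T. The level of a position is the percentage of its reads that were methylated, and the level of a region is the same share over all its reads. Positions with more reads thus weigh more, and a region can differ in sign from its positions.

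Over all positions the samples held from 14556783 to 17815556 cytosine calls in the exercised group and from 9153526 to 18656340 in the sedentary group, where sedentary sample 3 was the lowest. In the regulator regions the median coverage of a position was 46, 55 and 50 reads in the 3 exercised samples, against 45, 62.5 and 29 reads in the 3 sedentary samples. Of 8 muscle genes listed as a check of the tissue, only Des (desmin) and Acta1 (skeletal actin) had a measured region. The median position of Des was at 4.88% and that of Acta1, which has 3 positions, at 61.2%, so the tissue label could not be checked further. Regions of genes of endothelium (2), leukocytes (2), adipocytes (2) and fibroblasts (3) were measured as well. Of these 9 only Slc2a5, a fructose transporter gene on the adipocyte list, had groups that did not overlap, against 7.25% of all regions. Slc2a5 lay at 70.4% ± 3.05 in exercised and 78.9% ± 1.98 in sedentary samples (mean and SD, n = 3 each). Its part in the results below was not tested.

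Immediate early genes are held ready in resting cells, and their factors (Fos and Jun as AP-1, Egr, Nr4a) are made within minutes of a stimulus such as muscle contraction. Their promoters usually lie in CpG islands, stretches dense in CpG that stay unmethylated in most tissues, and carry sites for factors such as CREB, SRF and EGR1. Stress genes answer heat, oxidative stress and misfolded protein: the Hsp70 and Hsp90 chaperones fold client proteins, J-domain proteins deliver clients to Hsp70, the dual-specificity phosphatases switch off MAP kinases, and Gadd45 and sestrin proteins act in growth arrest and metabolic stress.

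Each deposited region is 3000 bases long. The spacing of its measured cytosines was matched to the CpGs of RefSeq promoter sequences, with no conversion of coordinates. In 1573 of the 2453 regions with a unique match (64.1%), the region began exactly 2000 bases before the annotated start, so distances below count the base 2000 bases into the region, or in a placed promoter the annotated first base, as 0. Of the regulator regions 96 had a promoter sequence for their symbol and 39 could be placed on it. The 250 bases before the start of 4 of them are shown, because their measured CpGs include both kinds of cytosine that set the region levels. The sequences are from RefSeq (GRCm38.p6), 5′ to 3′ on the gene's strand, with every CCGG and TCGA in capitals. Egr2 (chr10:67537619-67537868, plus strand) and Nr4a1 (chr15:101266596-101266845, plus strand) encode an early growth response factor and an orphan nuclear receptor, Fosb (chr7:19310046-19310295, minus strand) a Fos subunit of AP-1, and Dusp22 (chr13:30659809-30660058, plus strand) a dual-specificity phosphatase.
Egr2: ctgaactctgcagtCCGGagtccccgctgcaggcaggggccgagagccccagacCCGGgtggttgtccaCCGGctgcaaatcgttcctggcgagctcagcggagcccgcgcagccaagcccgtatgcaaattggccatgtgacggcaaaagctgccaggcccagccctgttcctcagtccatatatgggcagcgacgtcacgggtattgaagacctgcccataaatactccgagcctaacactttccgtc
Nr4a1: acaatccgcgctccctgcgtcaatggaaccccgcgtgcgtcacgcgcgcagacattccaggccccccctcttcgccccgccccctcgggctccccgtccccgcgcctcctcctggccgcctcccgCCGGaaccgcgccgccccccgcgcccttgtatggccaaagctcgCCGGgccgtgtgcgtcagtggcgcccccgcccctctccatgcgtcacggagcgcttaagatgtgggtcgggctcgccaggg
Fosb: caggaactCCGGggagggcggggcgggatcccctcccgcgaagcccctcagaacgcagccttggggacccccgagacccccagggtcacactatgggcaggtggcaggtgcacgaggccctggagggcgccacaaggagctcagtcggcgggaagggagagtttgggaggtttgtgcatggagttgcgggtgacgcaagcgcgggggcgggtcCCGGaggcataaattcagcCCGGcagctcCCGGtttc
Dusp22: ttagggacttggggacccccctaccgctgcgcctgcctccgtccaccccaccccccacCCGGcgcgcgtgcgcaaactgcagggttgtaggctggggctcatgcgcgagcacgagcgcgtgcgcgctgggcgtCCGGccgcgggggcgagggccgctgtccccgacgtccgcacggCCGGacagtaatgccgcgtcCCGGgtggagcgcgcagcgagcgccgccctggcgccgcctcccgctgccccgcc

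In the Egr2 promoter the CpG of the first CCGG was read on both strands. At -234 it lay at 100% ± 0 in exercised and 97.8% ± 3.85 in sedentary samples, and at -235, on the opposite strand, 17.1% ± 14.2 in exercised and 18.9% ± 10.7 in sedentary samples (mean and SD, n = 3 each here and below). The 4 positions between this site and the next, outside any CCGG or TCGA, had mean levels from 0 to 2.99%. The next CCGG repeated the first, with 99.0% ± 1.75 in exercised and 100% ± 0 in sedentary samples at -195 and 17.4% ± 8.84 in exercised and 15.3% ± 13.4 in sedentary samples at -194. In Nr4a1 the CCGG positions at -123 and -80 had mean levels of 100% and 96.4%, and the 12 other measured positions had 0 to 5.43%. In Fosb the 4 CCGG positions stood at 14.2% to 100% and the 4 others at 0.98% to 8.74%. In Dusp22 the 6 CCGG positions stood at 15.1% to 99.1% and the 35 others at 0 to 3.68%. In all 4 promoters, then, the measured CpGs at 10% or more lay within a CCGG, and those before the start are in capitals above. In Fosb and Dusp22 a further CCGG, 24 to 26 bases after the start and outside the printed stretch, was measured too.

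**Figure D1:**
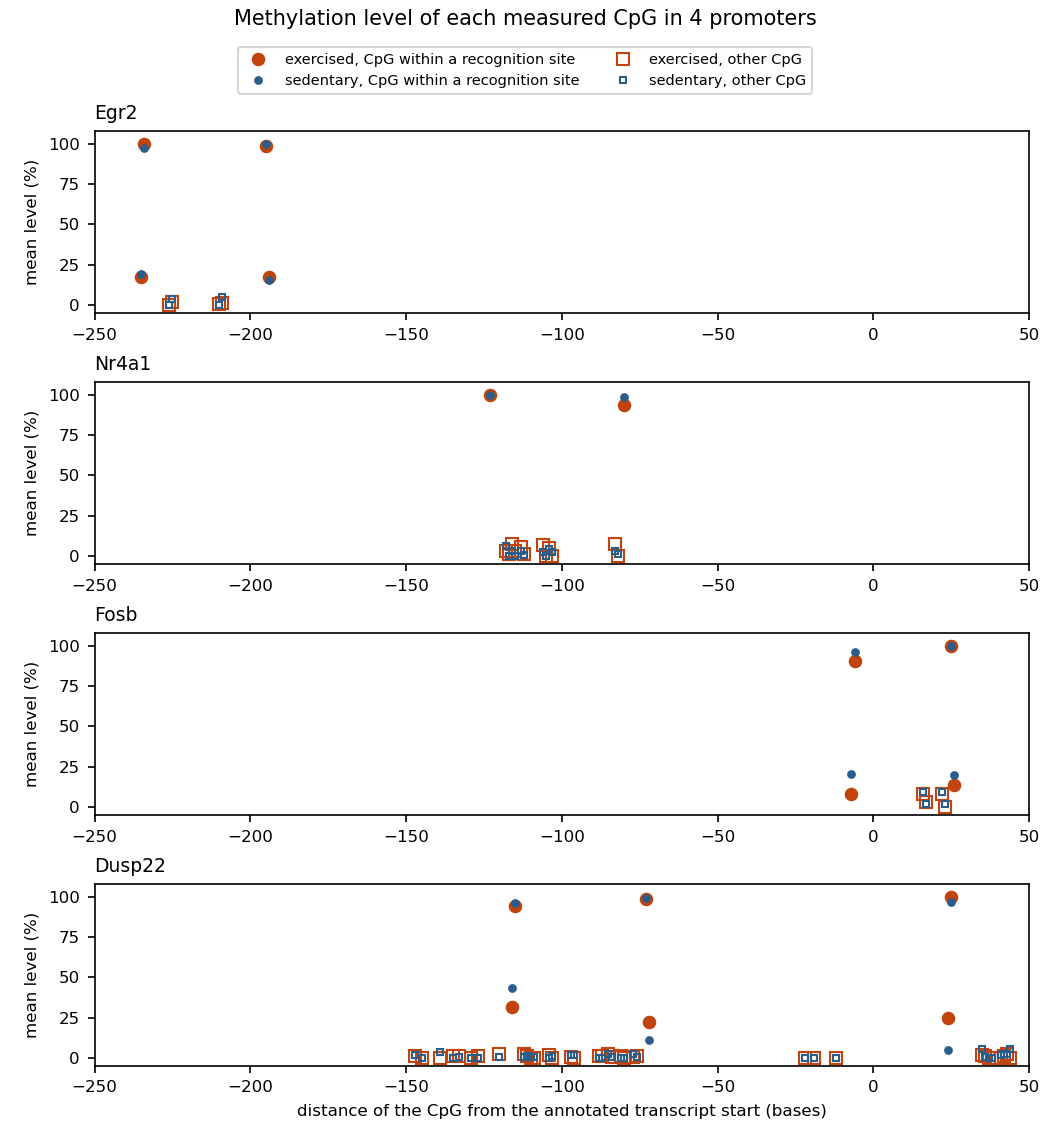
Mean methylation level (%) of each measured position against its distance from the annotated start (bases) in 4 promoters, as large orange (exercised) and small blue (sedentary) symbols, filled for CpGs within CCGG or TCGA and open for the other CpGs. As means over the 6 samples, the other CpGs reach 8.74% at most and those within a site lie between 14.2% and 100%. The group means drawn here overlap. Filled symbols go down to 5.13% (Dusp22 at 24, sedentary) and open ones up to 9.23% (Fosb at 16, sedentary).

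The same split held across the placed regulator regions. The 151 positions within CCGG or TCGA, in 38 regions, averaged 62.6%, 60.2% and 61.1% in the 3 exercised samples, against 61.9%, 62.6% and 60.3% in the 3 sedentary samples. The 397 other positions, in 39 regions, averaged 2.02%, 2.31% and 2.25% in exercised and 2.17%, 1.37% and 1.89% in sedentary samples. The groups overlapped in both classes, with means of 61.3% ± 1.24 in exercised and 61.6% ± 1.18 in sedentary samples for the CCGG and TCGA positions, and of 2.19% ± 0.151 in exercised and 1.81% ± 0.406 in sedentary samples for the other CpGs. Of the other positions 391 of 397 had a mean level under 10% and 0 reached 90%, whereas 67 of the 151 site positions did. Where both strands of a site were read (57 pairs), the median of the higher strand was 96.7% and that of the lower strand 19.0%. For 153 pairs at other CpGs these medians were 2.47% and 0.824%. All placed regions of the series showed like values, with 61.3% ± 1.5 in exercised and 61.0% ± 1.35 in sedentary samples at 11387 site positions, and 2.33% ± 0.293 in exercised and 2.19% ± 0.36 in sedentary samples at 29586 other positions. CCGG is cut by MspI, the usual enzyme of this assay, and TCGA by TaqI. The labels used here name no enzyme, and why the level at these sites stands apart was not tested.

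**Figure D2:**
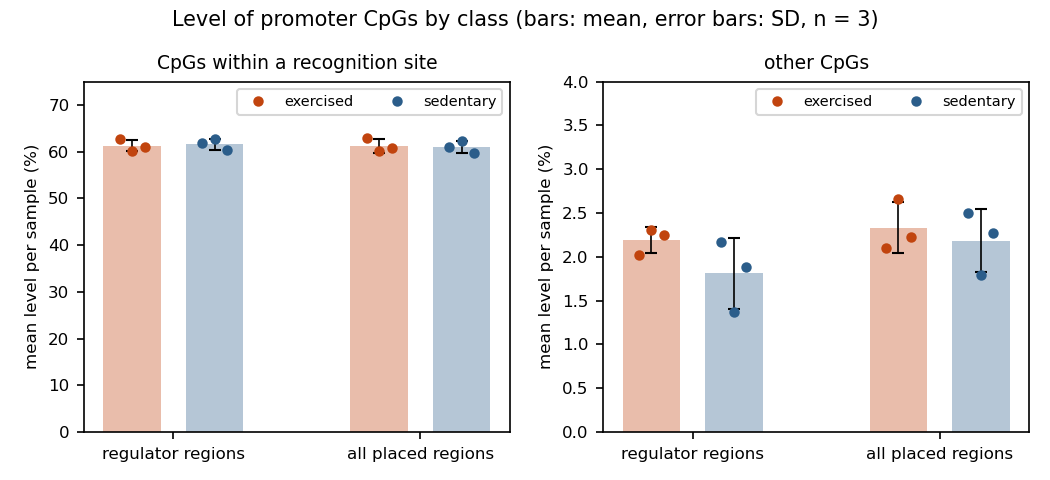
Mean level (%) of promoter-placed positions in each sample (points), with the group mean (bar) and SD (error bar, n = 3), for CpGs within CCGG or TCGA (left) and other CpGs (right, with its own scale from 0), in the regulator regions and in all placed regions. Site CpGs averaged 61.3% in exercised and 61.6% in sedentary samples in the regulator regions, and other CpGs 2.19% in exercised and 1.81% in sedentary samples.

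Most regulator regions could not be placed on a sequence, so the same feature was followed by a rule that needs none. A position was called stand-alone if its mean level was 10% or more while the median of at least 3 other positions within 100 bases, the adjacent base left out, was under 10%. Of the 3664 positions, 2583 (70.5%) were under 10%, against 69.0% of all positions in the series. There were 1081 positions at 10% or more, and 922 of them (85.3%) stood alone, against 80.5% in the series. In placed regulator regions 139 of the 151 CCGG or TCGA positions were stand-alone and 6 of the 397 others. Region levels depend on them: the median region level of the 119 regions was 20.9% with all positions and 2.63% without the stand-alone ones (all regions, 22.0% and 2.77%). Levels below are with all positions unless stated, and a region of few positions, in which none can be called, keeps its full level in either case.

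By role, the median region level with all positions ranged from 16.0% in the 5 C/EBP regions to 24.7% in the 13 Gadd45, Ier and Sesn regions. Without stand-alone positions the medians were 4.21% in the 15 regions of AP-1 and its relatives, 2.08% in the 21 Egr, Klf and Nr4a regions, 3.87% for C/EBP, 5.20% for Gadd45, Ier and Sesn, 2.31% in the 18 Dusp regions, 3.24% in the 16 heat shock protein regions and 2.24% in the 31 Dnaj regions. The median position was under 5% in 95 of the 119 regions (79.8%), against 70.3% of all regions, and at 50% or more in 3 (2.52%), against 4.54%. Dusp regions had the median position under 5% in 17 of 18 cases, Klf regions in 14 of 15 and C/EBP regions in 5 of 5, while among AP-1 relatives it was 9 of 15 and among Gadd45, Ier and Sesn 8 of 13.

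Methylated stretches, defined as at least 3 positions in a row at 50% or more, occurred in 3 regulator regions (2.52%) and in 306 of all 10021 (3.05%). Dnajb7, an intronless J-domain gene, was methylated at 6 of 6 positions between 381 and 413 bases after the start, with region levels of 99.0%, 96.2% and 96.6% in exercised and 98.8%, 98.6% and 95.1% in sedentary samples. Klf17, a Krüppel-like factor of the early embryo, was methylated at its 3 positions, with 85.7%, 85.6% and 88.0% in exercised and 86.3%, 87.6% and 76.0% in sedentary samples. Without sedentary sample 3 its difference of 3.12 percentage points turned to -0.53 points. In the Cebpzos region a stretch of 6 positions from -726 to -690 had 91.2% ± 8.22 in exercised and 86.9% ± 6.68 in sedentary samples, whereas the median position of that region was at 2.48%. In all 3 stretches the values of the groups overlapped. Dnajb3, another intronless J-domain gene, lay at the opposite end, with 4 of 4 positions under 10% and region levels of 0%, 1.8% and 3.07% in exercised and 2.44%, 4.17% and 13.9% in sedentary samples.

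Along the gene, the 96 regulator regions with a known strand had a mean level, without stand-alone positions, of 3.89% in exercised and 3.73% in sedentary samples over 1148 positions in the first 500 bases after the start. In the 500 bases before it the means were 4.82% in exercised and 4.75% in sedentary samples over 493 positions. Further upstream, from 1000 to 500 bases before the start, 98 positions of 16 regions averaged 15.3% in exercised and 15.0% in sedentary samples. Beyond that point the values rest on 40 positions of 6 regions and 31 positions of 5 regions. By mean level the regulator regions were thus lowest in the 1000 bases around the start in both groups, as were all regions. The median position was near 0 in every bin, from 1.41% to 1.94% in the regulator regions, and lowest from -1500 to -1000, so the order of the bins holds for the mean only.

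**Figure D3:**
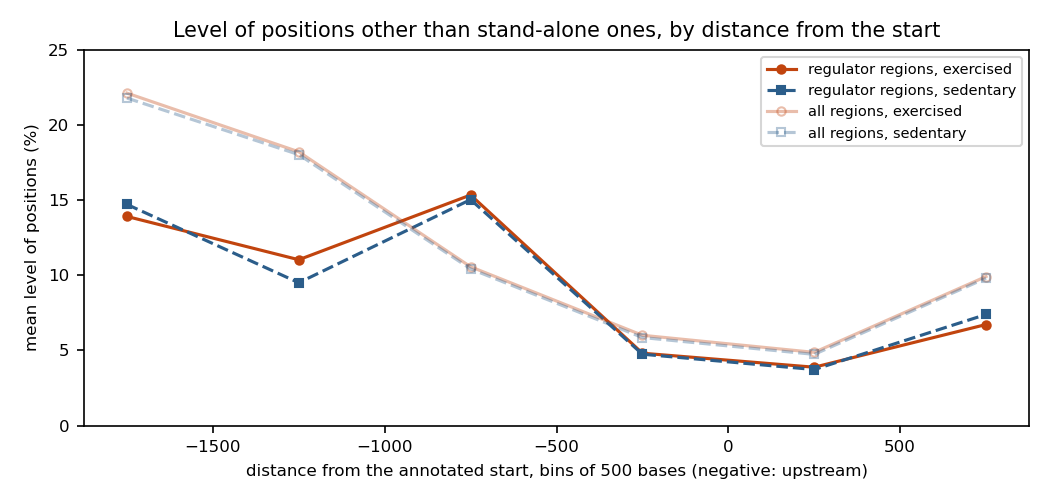
Mean level (%) of positions other than stand-alone ones in bins of 500 bases, by distance from the annotated start, for the regulator regions (dark) and all regions (pale) in exercised (circles) and sedentary (squares) samples. The lowest bin in both groups runs from 0 to 500 bases, with 3.89% in exercised and 3.73% in sedentary samples in the regulator regions.

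The effect of exercise was tested on the methylated and unmethylated reads of each region with edgeR's quasi-likelihood test, fitted to all 10021 regions. With Benjamini-Hochberg adjustment over all regions, 0 of the 119 regulator regions passed 0.05 (percent of all regions passing, 0), and 0 passed in limma. At an unadjusted p under 0.05 edgeR called 2 of the 119, against 2.37% of all regions, and limma called 3 of the 119, against 2.82% of all regions. The groups did not overlap in 3 of the 119 regions, against 7.25% of all regions. The exercised minus sedentary difference had a median of 0.26 percentage points over the regulator regions, against a median of 0.39 points over all regions. Of the 119, 70 were higher and 49 lower in exercised muscle, against 6117 higher and 3904 lower of all 10021 regions. The difference lay within 2 points in 98 of the 119, against 7492 of all 10021. The count of 2 was 1 without exercised sample 1 (against 1.69% of all regions in that fit) or exercised sample 2 (against 2.12%) and 4 without exercised sample 3 (against 6%). The median difference was -0.10 points without exercised sample 1. The fit was also run on simulated counts, in which the same spread between samples was assumed for every region and not estimated from these data. There, shifts of 10 points were recovered in 26% of 200 changed regions among the 10021 and shifts of 20 points in 95%. With the real spread these rates may differ. Shifts under 10 points were not simulated.

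**Figure D4:**
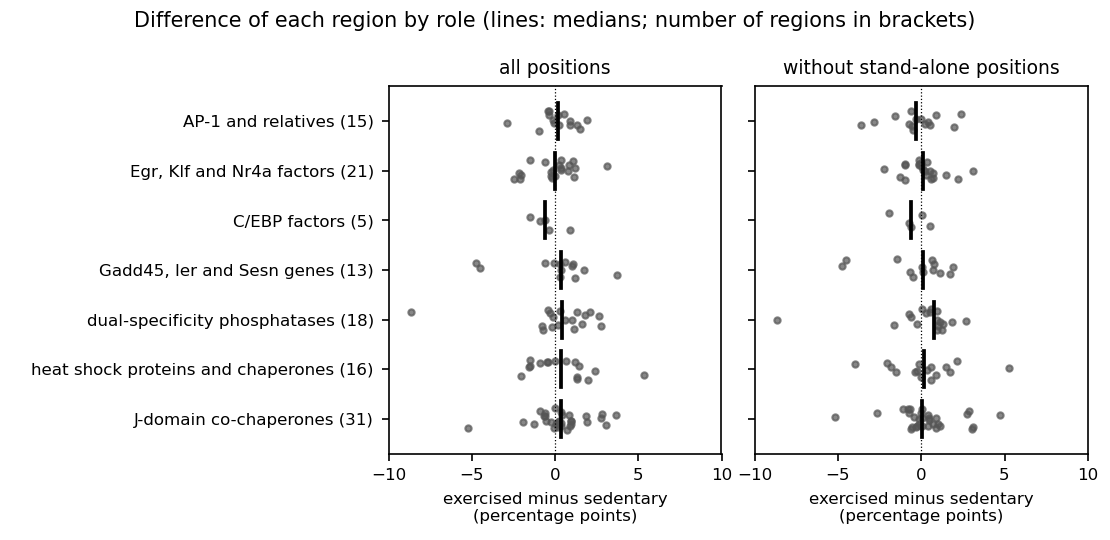
Exercised minus sedentary difference (percentage points) of each of the 119 regions by role, with all positions (left) and without stand-alone positions (right), where each point is a region and each black line the median of its role group. The medians with all positions lie between -0.60 points (C/EBP) and 0.45 points (Dusp), and the region farthest from 0 is Dusp11 at -8.65 points.

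Of 28 immediate early and stress genes listed as the core of the response, 23 were measured in 25 regions, while Fosl1, Egr3, Nr4a3, Hspa1a and Hspa1b had no region of 3 positions in the table used here. Of the 25, 15 were higher and 10 lower in exercised muscle, against 6117 higher and 3904 lower of all 10021 regions. The groups did not overlap in 0 of the 25, against 7.25% of all regions. Differences ran from -4.50 to 3.72 points with a median of 0.29, and the smallest unadjusted p of edgeR was 0.0927, for Egr4 (adjusted p = 1.0).

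Among the AP-1 genes, the Fos region (chr12:86812851-86815850, mm9) held 4 positions, from -483 to -364, with region levels of 41.9%, 46.2% and 43.5% in exercised and 46.7%, 49.3% and 44.2% in sedentary samples. The groups overlapped, and the mean levels of the 4 positions were 65.6%, 98.2%, 3.91% and 19.0%, so the region level averages very unlike cytosines. Jun, the partner of Fos in AP-1, had 26.9%, 22.5% and 20.9% in exercised and 20.9%, 19.8% and 23.8% in sedentary samples, and without stand-alone positions 9.99% ± 1.98 in exercised and 8.04% ± 0.277 in sedentary samples. Junb, another Jun protein, had 23.3%, 23.8% and 21.3% in exercised and 27.5%, 18.0% and 25.7% in sedentary samples. Sedentary sample 2 was the lowest and sedentary sample 1 the highest of the 6, so that the Junb difference of -0.93 points became -3.82 when sedentary sample 2 was left out and 0.96 when sedentary sample 1 was. Fosb lay at 24.5% ± 1.38 in exercised and 24.0% ± 1.37 in sedentary samples, Fosl2 at 22.2% ± 0.447 in exercised and 22.2% ± 1.02 in sedentary samples, and Jund, with 6 positions, at 40.7% ± 3.85 in exercised and 40.6% ± 4.15 in sedentary samples. Jund turned to -3.61 points without stand-alone positions and to 5.20 with 1 strand per CpG. Leaving out exercised sample 1 brought Jun to 0.20 points and Fosb to -0.27, leaving out sedentary sample 1 brought Fosl2 to 0.31, and leaving out sedentary sample 2 brought Fos to -1.57. Atf3, a stress-induced repressor, had 30.9%, 29.0% and 26.3% in exercised and 24.2%, 27.7% and 29.8% in sedentary samples, which overlapped, and the difference of 1.5 points was -0.01 without sedentary sample 1. The 15 regions of this group split into 8 higher and 7 lower, and 0 reached an unadjusted p under 0.05 in edgeR, against 2.37% of all regions.

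All 3 measured Egr regions had a lower region level in exercised muscle, with overlapping groups. Egr4, a neuronal member of the family, had 21.0%, 19.6% and 18.1% in exercised and 20.3%, 22.3% and 22.5% in sedentary samples, differing by -2.16 points (unadjusted p = 0.0927, edgeR). Egr2, which drives Schwann cell myelination, had 33.1%, 33.7% and 34.0% in exercised and 36.9%, 33.8% and 37.5% in sedentary samples, differing by -2.46 points. Sedentary sample 2 lay within the exercised values in Egr2, and sedentary sample 1 in Egr4. Egr1, the family's best known immediate early gene, differed by -0.21 points (0.42 without sedentary sample 1), at 27.4% ± 1.53 in exercised and 27.6% ± 1.29 in sedentary samples. Of the 25 Egr1 positions, 13 were higher, 9 lower and 3 equal in exercised muscle, so most did not share the sign of the region. At the promoter CpGs outside CCGG and TCGA, Egr2 lay at 0.983% ± 0.906 in exercised and 2.76% ± 4.78 in sedentary samples and Egr4 at 0.977% ± 0.727 in exercised and 0.737% ± 0.640 in sedentary samples, where the sign of the Egr4 difference was the other one. Nr4a1, an orphan receptor induced by exercise in muscle, had 13.6%, 16.3% and 18.2% in exercised and 14.8%, 15.5% and 17.1% in sedentary samples. Its difference of 0.22 points was -0.87 without exercised sample 3. The Nr4a2 regions differed by 0.34 and -0.59 points, or -0.53 and -3.48 without sedentary sample 2. Of the 15 Klf regions 9 were higher and 6 lower (median 0.37 points). Klf13, a zinc finger factor that binds GC-rich promoters, differed by -2.05 points, or -1.13 without exercised sample 2.

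**Figure D5:**
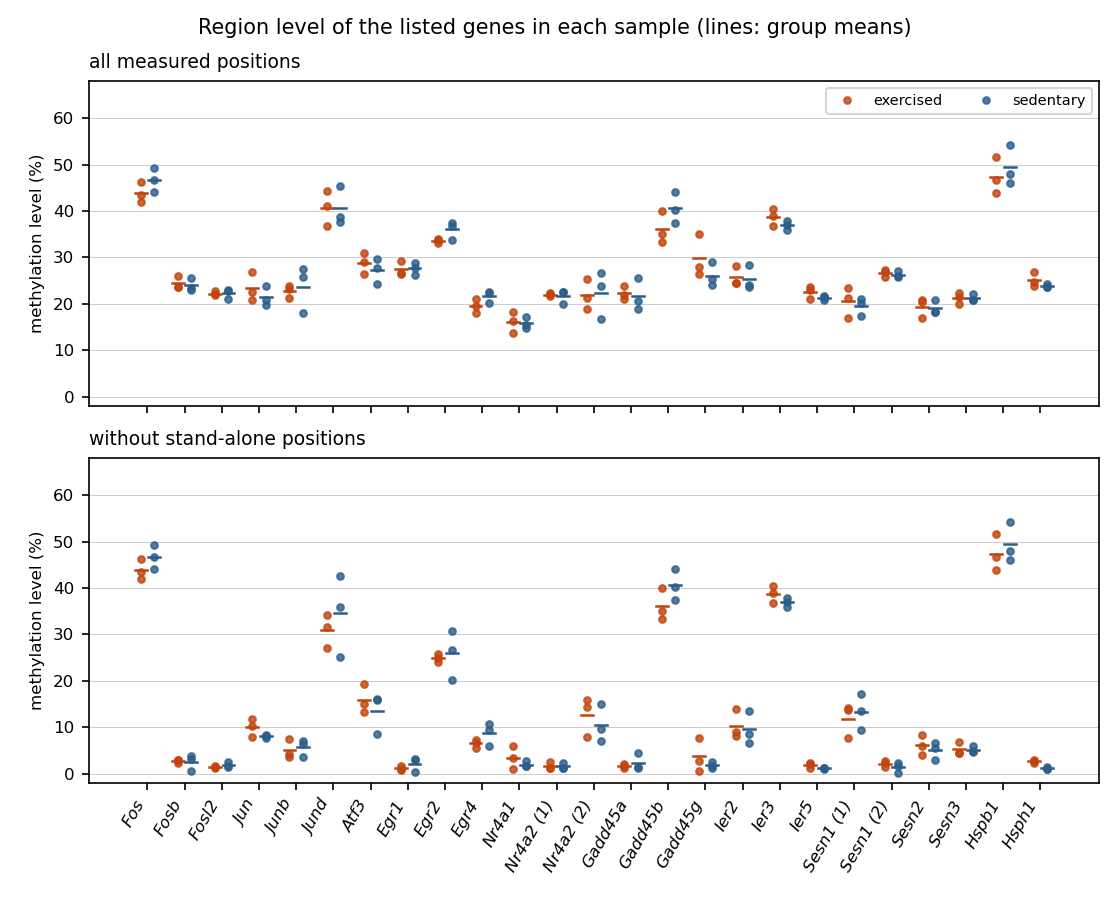
Region level (%) of the 25 regions of the listed genes in each sample (points, with a line at the group mean), exercised in orange and sedentary in blue, with all positions (top) and without stand-alone positions (bottom). The groups overlap in all 25 regions with all positions, and Fos, Gadd45b, Ier3 and Hspb1, which hold no stand-alone position, keep the same level in both panels.

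Of the C/EBP factors, which act in adipocyte and acute phase transcription, Cebpa, Cebpb and Cebpd were lower and Cebpg was higher. Among them 0 had an unadjusted p under 0.05 in edgeR, against 2.37% of all regions. Cebpd differed by -0.88 points, which became 0.34 without exercised sample 3, and Cebpg by 0.91 points, which became 0.32 without sedentary sample 2. Cebpzos, counted with them by its letters, differed by -1.48 points, or 0.21 without sedentary sample 3. Among the growth arrest genes, Gadd45b (3 positions) had 35.0%, 40% and 33.3% in exercised and 40.3%, 44.2% and 37.4% in sedentary samples, differing by -4.50 points, or -2.73 without sedentary sample 2. The difference sat at the position at -910, with 6.61% ± 6.50 in exercised and 24.0% ± 10.6 in sedentary samples, while the other positions stood at 1.32% and 99.1%. Gadd45g, at the opposite end, had 35.1%, 28.0% and 26.4% in exercised and 29.0%, 25.3% and 24.0% in sedentary samples, differing by 3.72 points that was 1.08 without exercised sample 1. Gadd45a differed by 0.62 points, and its sign turned without sedentary sample 3 (-0.74 points). Gadd45gip1, which shares the letters but encodes a mitochondrial protein, had 59.7%, 56.7% and 47.8% in exercised and 80.4%, 44.2% and 53.8% in sedentary samples, and leaving out sedentary sample 1 turned the difference of -4.74 points to 5.72. Gadd45 proteins are stress sensors that have also been linked to active DNA demethylation. Ier2, Ier3 and Ier5, products of genes induced by growth factors, differed by 0.35, 1.74 and 1.21 points, which became -0.86, 0.89 and 0.68 without exercised sample 1. The sestrin regions, of stress-induced inhibitors of mTORC1 signalling, differed by 1.03 and 0.32 points (Sesn1), 0.29 points (Sesn2) and -0.05 points (Sesn3). Leaving out 1 sample turned the sign of the first Sesn1 value (to -0.39, without exercised sample 2), of Sesn2 (to -0.45, likewise) and of Sesn3 (to 0.55, likewise), and brought the other Sesn1 value to 0.01 (without exercised sample 3). The Gadd45, Ier and Sesn group had 9 regions higher and 4 lower, and 0 with an unadjusted p under 0.05 in edgeR, against 2.37% of all regions.

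Dusp11 had the difference farthest from 0 of all 119 regions. Its levels were 43.9%, 47.2% and 50.5% in exercised and 62.4%, 50.5% and 54.7% in sedentary samples, so every exercised sample was below every sedentary one, though exercised sample 3 and sedentary sample 2 nearly met. The means were 47.2% ± 3.27 in exercised and 55.8% ± 6.03 in sedentary samples, differing by -8.65 points (unadjusted p = 0.0299, adjusted p = 1.0, edgeR). The region (chr6:85910662-85913661, mm9) has 5 positions, of which 3 were lower in exercised muscle. At 834 bases after the start it lay at 15.0% ± 10.3 in exercised and 32.7% ± 11.3 in sedentary samples, and at 80 bases before it 10.9% ± 8.14 in exercised and 20.7% ± 19.7 in sedentary samples, both overlapping. Dusp11 protein acts on the ends of RNA rather than on MAP kinases. Without sedentary sample 1 the Dusp11 difference was -5.39 points. Dusp1, the MAP kinase phosphatase induced by stress, had 16.7%, 23.5% and 22.2% in exercised and 23.7%, 23.2% and 17.8% in sedentary samples, and its 3 positions other than the stand-alone one stood at 0.379% to 1.53%. All 4 of its positions were higher in exercised muscle, yet the region level differed by -0.77 points. The sign of the Dusp1 region thus reflects how its reads spread over unlike positions. Of the 18 Dusp regions, 11 were higher and 7 lower (median 0.45 points), and among them Dusp26 differed by 1.60 and Dusp12 by 1.30 points, the second of which was 0.10 without exercised sample 1.

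Hspa8, the constitutive Hsc70 chaperone, was the other region with an unadjusted p under 0.05. It had 36.8%, 33.4% and 31.8% in exercised and 25.8%, 28.7% and 31.4% in sedentary samples. Every exercised sample lay above every sedentary one, by a narrow margin between exercised sample 3 and sedentary sample 3, and the means were 34.0% ± 2.57 in exercised and 28.7% ± 2.79 in sedentary samples, differing by 5.33 points (unadjusted p = 0.0471, adjusted p = 1.0, edgeR). Of its 14 positions (chr9:40607356-40610355, mm9), 9 were higher and 5 lower in exercised muscle. None of the 14 had groups that did not overlap. Without stand-alone positions it lay at 24.7% ± 2.25 in exercised and 19.5% ± 2.06 in sedentary samples (unadjusted p = 0.235, edgeR), and for Dusp11, which has no stand-alone position, the p of that fit was 0.182.

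The Hsph1 region, of the Hsp110 chaperone that exchanges nucleotides on Hsp70, had 26.9%, 24.7% and 23.9% in exercised and 23.7%, 24.4% and 23.5% in sedentary samples. These values overlapped (unadjusted p = 0.378, edgeR). Without its 11 stand-alone positions the levels were 2.72%, 2.89% and 2.39% in exercised and 1.01%, 1.40% and 1.09% in sedentary samples, and the groups no longer overlapped. The means of 2.67% ± 0.250 in exercised and 1.17% ± 0.203 in sedentary samples differed by 1.5 points (unadjusted p = 0.0164, edgeR). In that fit 5 of the 119 regions had an unadjusted p under 0.05, against 4.52% of all regions, and 0 of all regions passed after adjustment. The others were Dnajb12 (1.04% ± 0.764 in exercised and 3.73% ± 1.87 in sedentary samples), Dnajc19, Hspe1 and Dusp1, of which only Dnajb12 was lower. Without stand-alone positions the groups also did not overlap in other regulator regions, among them Cebpd, Dusp22, Hspa8 and Hspe1. The share of all regions without overlap in that setting is not given. At promoter CpGs outside CCGG and TCGA, Hsph1 lay at 3.07% ± 0.781 in exercised and 0.343% ± 0.306 in sedentary samples (unadjusted p = 0.00572, edgeR). There 2 of 37 regulator regions, Hsph1 and Dnajb11, had an unadjusted p under 0.05, against 4.51% of 2658 regions.

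The measured CpGs near the Hsph1 start had a higher coverage than those further upstream. The 60 bases before the start (chr5:149636337-149636396, minus strand, RefSeq, GRCm38.p6) are given with the measured CpGs in capitals.
Hsph1: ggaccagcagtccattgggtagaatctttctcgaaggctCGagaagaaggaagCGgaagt
The CpG at -7, the nearer to the start, had 2.16%, 1.5% and 2.40% in exercised and 0%, 0.781% and 0% in sedentary samples. The CpGs at 4 and 12 bases after the start had 2.52% ± 0.890 in exercised and 0% ± 0 in sedentary samples, and 5.32% ± 1.90 in exercised and 0.3% ± 0.520 in sedentary samples, all at a mean coverage of 113 to 115 reads. At these 3 CpGs the groups did not overlap, and all levels were under 10%. The CpG at -21, within TCGA, went the other way, with 5.88%, 6.92% and 9.68% in exercised and 13.8%, 15.3% and 20% in sedentary samples. Of the 4 other positions outside CCGG and TCGA, those at -221, -209 and -208 differed by 4.74, 2.67 and 4.76 points at a mean coverage of 25 to 32.3 reads. At these the groups overlapped and exercised sample 3 alone was high (14.3%, 12.0% and 14.3%). The positions at -209 and -208 are opposite strands of the same CpG. The position at -222, the opposite strand of that at -221, differed by -1.33 points. Whether misread or unconverted bases contribute at levels this low was not tested.

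The other heat shock protein regions differed little. Hspb1, a small heat shock protein abundant in muscle, had 51.6%, 43.9% and 46.7% in exercised and 54.3%, 48.0% and 46.1% in sedentary samples over 8 positions, and leaving out sedentary sample 1 turned the -2.04 points between the groups to 0.39. Hsp90ab1, a constitutive Hsp90, lay at 26.5% ± 2.81 in exercised and 24.1% ± 1.41 in sedentary samples, and Hspa5, the chaperone of the endoplasmic reticulum, at 23.8% ± 0.353 in exercised and 22.4% ± 1.81 in sedentary samples. The Hsp90ab1 difference of 2.43 points was 1.37 without exercised sample 1. The 16 regions split into 9 higher and 7 lower (median 0.34 points). The Hspa2 region with fewer measured positions (9) differed by -1.49 points, which became -6.84 when sedentary sample 2 was left out and 3.14 when sedentary sample 1 was.

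Of the 31 Dnaj regions, 21 were higher and 10 lower in exercised muscle (all regions, 6117 and 3904 of 10021), at a median of 0.35 points. At an unadjusted p under 0.05 edgeR called 0 of the 31, against 2.37% of all regions. Dnaja3, a mitochondrial J-domain protein, was the third region whose groups did not overlap, with 18.6%, 18.9% and 18.3% in exercised and 18.3%, 18.2% and 16.7% in sedentary samples. The difference was 0.85 points, or 0.33 without sedentary sample 3 (unadjusted p = 0.522, edgeR), and exercised sample 3 and sedentary sample 1 were nearly equal. Dnajb3 had the lowest p of the group, at -5.21 points (unadjusted p = 0.0806, edgeR), or -1.68 points without sedentary sample 3, whose level of 13.9% was far above the other values. Dnajb9, a co-chaperone of the endoplasmic reticulum, lay at 28.5% ± 1.79 in exercised and 25.7% ± 0.674 in sedentary samples, Dnajc9 at 27.7% ± 3.65 in exercised and 24.0% ± 1.51 in sedentary samples, and Dnajc27 at 43.2% ± 2.31 in exercised and 40.2% ± 2.74 in sedentary samples, and with all positions the groups overlapped in each of them. Without stand-alone positions Dnajb9 had 20.5% ± 2.24 in exercised and 15.7% ± 2.02 in sedentary samples, which did not overlap (unadjusted p = 0.208, edgeR). The same held for other regulator regions in that setting, such as Klf11 and Dusp26 (share of all regions not given). Leaving out sedentary sample 1 lowered the Dnajc27 difference of 3.05 points to 1.71, and leaving out exercised sample 2 lowered that of Dnajc9, 3.68 points, to 2.12.

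Sequence motifs that these factors bind, or through which their genes are induced, were searched on both strands of the 111 RefSeq promoter sequences of 92 regulator genes and of all 32851 promoters, each running from 250 bases before to 50 after the start. The CREB core TGACG was in 54 of the 111 (48.6%, against 20.8% of all promoters) and the full element TGACGTCA, which contains it, in 4 (3.6%, against 1.79%), in Dnajc27, Dusp1, Dusp8 and Maff. The EGR motif GCGGGGGCG was in 15 (13.5%, against 2.91%), the heat shock motif GAANNTTC in 14 (12.6%, against 7.86%), the AP-1 motif TGANTCA in 3 (2.70%, against 7.81%) and the CArG box bound by SRF in 5 (4.50%, against 1.63%), in promoters of Egr2 and Dnajc16. Family members share promoter features. The 111 also belong to genes with at least 3 measured cytosine positions, whereas the 32851 were taken without that filter. TGACG, TGACGTCA and GCGGGGGCG contain CpG, so the background is an unlike set and these shares are descriptions only. Measured CpGs fell within an EGR motif or a CREB core at 31 positions of 12 genes. Stretches of 4 such promoters are shown, from RefSeq (GRCm38.p6) on the gene's strand, with the EGR motif in capitals for Dusp2 (chr2:127336021-127336109, plus strand) and Klf2 (chr8:72318823-72318911, plus strand), and the CREB core, read on the opposite strand, in capitals for Egr4 (chr6:85513654-85513738, minus strand) and Dnajb1 (chr8:83608124-83608174, plus strand).
Dusp2: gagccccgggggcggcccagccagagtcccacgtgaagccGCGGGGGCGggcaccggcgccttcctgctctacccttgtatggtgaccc
Klf2: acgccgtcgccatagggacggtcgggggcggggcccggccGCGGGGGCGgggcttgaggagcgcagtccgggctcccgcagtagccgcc
Egr4: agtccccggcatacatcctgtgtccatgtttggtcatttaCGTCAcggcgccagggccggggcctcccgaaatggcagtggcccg
Dnajb1: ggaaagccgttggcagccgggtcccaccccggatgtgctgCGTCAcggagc

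The levels at these 31 motif positions ran from 0 to 5.70% as means over the 6 samples, with a median of 0.976%. In the Dusp2 motif, upstream of a phosphatase induced in activated lymphocytes, the position at -97 was at 0% in all 6 samples and that at -96 at 3.5% ± 3.35 in exercised and 0.844% ± 1.46 in sedentary samples. In the Klf2 motif, upstream of a factor induced by blood flow in endothelium, the position at -199 had 26.9%, 3.03% and 0% in exercised and 0% in all 3 sedentary samples. That value and the highest of the set, in Dnajc1 at -32 (31.2%, 2.94% and 0% in exercised and 0% in all 3 sedentary samples), rest on exercised sample 1, and both positions had a mean coverage of 23.0 and 22.7 reads. Around the Dnajb1 core, upstream of the stress-induced Hsp40, the positions at -11 and -10 stood at 0.395% ± 0.345 and 1.43% ± 1.31 in exercised and 1.17% ± 1.12 and 1.27% ± 1.10 in sedentary samples. The CREB core of Egr4 held a position at -108 with 1.85% ± 3.21 in exercised and 1.33% ± 2.31 in sedentary samples. Apart from exercised sample 1 in Klf2 and Dnajc1, the highest single value was that of sedentary sample 3 at a CREB core of Dusp2, 6 bases after the start, with 0% in all 3 exercised samples and 0%, 2.06% and 16.7% in sedentary samples.

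Single positions were tested over the whole table in the same way. Of the 3454 testable positions in the regulator regions, 114 (3.3%) had an unadjusted p under 0.05 in edgeR, against 3.32% of all 253960 positions. Of these, 51 were higher and 63 lower in exercised muscle, they lay in 61 regions with at most 5 in any region, and 16 were stand-alone. Without exercised sample 2 the 114 were 57, and without exercised sample 3 they were 60 (shares over all positions in these fits not given). After adjustment 0 passed in edgeR, the smallest adjusted p being 0.919. Among the 114, the largest positive difference was in Dusp28 (chr1:94803790, mm9), 224 bases after the start, with 33.6%, 34.2% and 27.1% in exercised and 9.92%, 10.5% and 0% in sedentary samples. The largest negative difference was in Dusp7, a phosphatase of ERK (chr9:106271102, mm9), 139 bases after the start, with 5.63%, 9.09% and 4.55% in exercised and 19.6%, 33.3% and 37.5% in sedentary samples. Both are stand-alone positions, and their regions as a whole differed by 2.75 and -0.18 points. Among the 5 largest positive differences, 3 positions that are not stand-alone, in Dnajc3, Dnajb14 and Sesn2, are given too, chosen after their values were seen. The first lies in a CpG outside CCGG and TCGA of Dnajc3, an inhibitor of stress kinases of translation, 36 bases before the start, with 16.7%, 19.4% and 12.8% in exercised and 0%, 1.19% and 0% in sedentary samples (unadjusted p = 0.00784, edgeR). In Dnajb14, 38 bases before the start, the values were 41.2%, 0% and 6.25% in exercised and 0% in all 3 sedentary samples, so the groups overlapped and the difference rests on exercised sample 1. In Sesn2 a position 52 bases after the start had 7.69%, 18.8% and 10.3% in exercised and 0% in all 3 sedentary samples, at a mean coverage of 23.3 reads.

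In the authors' deposited table, 104 of 3454 positions in the regulator regions (3.01%) had an unadjusted p under 0.05, against 3.14% of all positions, and 64 of the 104 were higher in exercised muscle. With a difference of at least 20 points besides, the authors' deposited table held 7 of them: higher in Dusp28 and Dusp10, by 24.8 and 25.3 points, and lower in Gadd45a, Dusp7, Dusp8, Dnajc18 and Dnajc21, by -24.0 to -20.6 points. Of these 7 positions 6 were stand-alone. The share of all positions that met both limits is not given, nor is the share of those that stood alone. The 7 positions are thus a description only.

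A list of 60 other genes of these responses (SRF and CREB cofactors, Nrf and Bach factors, heat shock factors, Hsp90 co-chaperones, unfolded protein response genes) had 43 measured regions. Of them 23 were higher and 20 lower in exercised muscle, at a median of 0.09 points, 0 passed after adjustment and 2 of the 43 had an unadjusted p under 0.05 in edgeR, against 2.37% of all regions. These were Nfe2l1, a stress-activated factor of the Nrf family, at 30.5%, 25.8% and 22.4% in exercised and 20%, 19.1% and 19.7% in sedentary samples (unadjusted p = 0.0139), and Batf3, a factor of dendritic cells that pairs with Jun, at 41.5%, 30.7% and 30.8% in exercised and 26.7%, 26.6% and 26.7% in sedentary samples (unadjusted p = 0.0233). In both regions every exercised sample lay above every sedentary one, and in 7 of the 43 regions the groups did not overlap, against 7.25% of all regions.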

How the data were processed

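Reduced representation bisulfite sequencing was analysed in 3 exercised and 3 sedentary quadriceps samples. The authors deposited, per cytosine position within regions around RefSeq starts, the methylated fraction and the read coverage of each sample and a p-value for the difference between groups. Coordinates are mm9, and per the submitters' processing notes, which give no order or role, the tools included Bismark 0.7.7, Bowtie 0.12.9, cutadapt 1.0 and Trim Galore 0.2.5. Every deposited position had a coverage of at least 10 reads in each sample. Methylated counts were recovered from the deposited fraction and coverage, and the product lay within 0.00236 of a whole read at every position.

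Counts were summed per region, so that neighbouring positions read from the same fragment enter together, and tested with edgeR 4.0.16 (R 4.3.3) quasi-likelihood, with a term per sample and a group term on the methylated counts, over all 10021 regions of at least 3 positions and over all testable positions. p-values were adjusted by the Benjamini-Hochberg method. limma 3.58.1 was an alternative, on log ratios with an offset of 2 reads. Tables and figures were made in Python 3.11.15 with numpy 2.4.6, pandas 2.3.3 and matplotlib 3.10.9. The fit was tested on simulated data.

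No 2 samples were alike enough to be 1 library deposited in duplicate (the lowest mean chi-square of a pair was 1.64). Intervals are not given, because reads without molecular identifiers are not independent molecules. Replicate numbers come from the labels.

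The members, gene lists and tests were chosen with earlier results of these data known. Named regions are those of the listed core genes, the 2 with the smallest p and the 2 with the highest level in each role group, the 5 with the largest difference per direction, any with groups that do not overlap, those with a measured motif CpG, and the position with the largest difference per direction. A few others were chosen after their values were seen (Hspa2, Dusp1, Dnajb12, Dnajc3 and the like). Alternatives were limma, the replicate number as a block, every sample left out in turn, at least 20 reads per position, at least 5 positions, 1 strand per CpG, no stand-alone positions, and promoter CpGs outside CCGG and TCGA.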

Additional observations from a re-analysis of the deposited data

How the results depend on the processing

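No region passed an adjusted p of 0.05 under any alternative run (0 of all regions in edgeR and in limma). The count of regulator regions with an unadjusted p under 0.05 was 2 of 119 in the reported edgeR fit, against 237 of all 10021 regions. It was 5 of 119 without stand-alone positions (all regions, 446 of 9874) and 3 of 107 with a coverage of at least 20 reads (188 of 8514). With 1 strand per CpG it was 3 of 119 (259 of 9939), and in limma 3 of 119 (283 of 10021). With at least 5 positions it was 2 of 111 (192 of 9085), and 1 to 4 of 119 when a sample was left out. Over all regions the 237 were 446 without stand-alone positions, 120 at promoter CpGs outside CCGG and TCGA (2658 regions, chosen after seeing the data), and 169 to 601 when a sample was left out, the 601 without exercised sample 3. The 114 positions were 57 to 110 when a sample was left out and 122 in limma. For these fits, and with the replicate number as a block, the counts over all positions are not given, so they are descriptions only. The median difference of the regulator regions, 0.26 points, ran from -0.10 to 0.66 points when a sample was left out and was 0.07 without stand-alone positions. Among 43 named differences, leaving out a sample changed the sign of 5 to 13.

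Samples that share a replicate number did not deviate together (correlations of 0.0190, -0.219 and -0.111), so the reported fit took no pairing. These correlations cannot exclude one, and the labels do not say what the numbers stand for. With the replicate number as a block the 2 regulator regions were 1, the 237 regions 204 and the 114 positions 29.

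Levels rest on a median of 29 to 62.5 reads per position, so a level near 0 at 1 position is imprecise. Sequence context is known only where a promoter could be placed, and positions were not assigned to exons or introns. The causes of the differences described here were not tested.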
